A study of Danio rerio with 4 samples.

Results

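Proteasome subunit genes were followed in hepatocytes of zebrafish larvae that lack or carry functional zc3h8, a gene for a CCCH-type zinc finger protein. The deposited annotation describes 44 genes as proteasome subunits, and 43 of them had a mean of at least 1 RPKM (reads per kilobase of gene, scaled to library size) over the libraries, among 11135 such genes of 33737 in all. They comprise 10 alpha and 8 beta genes of the core particle, and 7 ATPase and 18 non-ATPase genes of the regulatory particle. The gene left out was psmb9 (ENSDARG00000000656), with a mean of 0.0482 RPKM, and the lowest genes kept were psmd5, with a mean of 2.74 RPKM, and psma6l, with 5.40 RPKM. Of the 43 genes, 38 had a symbol in the gene name table, and the other 5 are called by the subunit in their annotation.

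The 4 groups were zc3h8-/- mutant and wild-type hepatocytes at 5.5 and at 7.5 days post fertilization (dpf), all of strain ABGO and all carrying the transgene Tg(lfabp:Dendra2-NTR). In that line the liver fatty acid binding protein promoter drives a fluorescent protein fused to nitroreductase in hepatocytes, so that a cell sorted by it is one in which this promoter was or had been active. Livers were dissected and dispersed with trypsin, cells were sorted by flow cytometry, and total RNA was turned into Smart-seq2 libraries. The sources used here do not say how many larvae went into a library. With 1 library a group, the differences have no replicate check, and intervals cover counting error only.

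The proteasome is the protease complex that degrades proteins tagged with ubiquitin. Its barrel-shaped core is built of stacked rings of alpha subunits, which form the gate, and of beta subunits, some of which carry the active sites. The regulatory particle caps the barrel: its ATPase subunits unfold the substrate, while non-ATPase subunits bind ubiquitin, remove it and hold the base and lid together. Hepatocytes make and turn over much protein, and in mammals the subunit genes are known to be controlled together by NRF1, the product of NFE2L1.

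Read totals inferred from the deposited normalized values were 36353835 (mutant) and 35960983 (wild type) at 5.5 dpf, and 29649005 (mutant) and 36999967 (wild type) at 7.5 dpf. All 14 hepatocyte marker genes tested were above 0 in each library, but their summed level was 44903 RPKM in mutant and 81980.2 RPKM in wild-type cells at 5.5 dpf. At 7.5 dpf it was 20128 RPKM in mutant and 59952 RPKM in wild-type cells. Of these 14 genes, 5 were at least 2-fold lower in the mutant at 5.5 dpf and 12 were at 7.5 dpf. Over all tested genes, 25.6% were lower at 5.5 dpf and 23.1% at 7.5 dpf. Of 17 macrophage marker genes, 8 were at 0 in mutant and 13 in wild-type cells at 5.5 dpf, and 4 were at 0 in mutant and 11 in wild-type cells at 7.5 dpf. Their sum was 1693 RPKM in mutant and 265 RPKM in wild-type cells at 5.5 dpf, and 1562 RPKM in mutant and 277 RPKM in wild-type cells at 7.5 dpf, most of it from lgals2b. That gene alone gave 1650 RPKM in mutant and 260 RPKM in wild-type cells at 5.5 dpf. At 7.5 dpf lgals2b gave 1265 RPKM in mutant and 265 RPKM in wild-type cells. The pan-leukocyte markers summed to 8.60 RPKM in mutant and 17.7 RPKM in wild-type cells at 5.5 dpf, and to 355 RPKM in mutant and 20.9 RPKM in wild-type cells at 7.5 dpf. The leukocyte marker ptprc and the macrophage markers csf1rb, cd74a and c1qc were at 0 in all 4 libraries. At 7.5 dpf all 10 tested macrophage markers were at least 2-fold higher in the mutant, beside 40% of all tested genes. Of these 10, 6 reached a mean of 1 RPKM through that mutant library alone. Of 8 tested pan-leukocyte markers, 6 were higher and 1 lower at 7.5 dpf, and 3 of the 8 reached that mean through the same library alone. Exocrine pancreas markers summed to 51.3 RPKM in mutant and 459.5 RPKM in wild-type cells at 5.5 dpf, and to 507 RPKM in mutant and 1939 RPKM in wild-type cells at 7.5 dpf. Stellate and mesenchymal markers summed to 121 RPKM in mutant and 45.3 RPKM in wild-type cells at 5.5 dpf, and to 449 RPKM in mutant and 79.5 RPKM in wild-type cells at 7.5 dpf. Neutrophil markers summed to 61.5 RPKM in mutant and 30.9 RPKM in wild-type cells at 5.5 dpf, and to 322 RPKM in mutant and 6.05 RPKM in wild-type cells at 7.5 dpf. Skin markers summed to 5785 RPKM in mutant and 2373 RPKM in wild-type cells at 5.5 dpf, and to 5258 RPKM in mutant and 5017 RPKM in wild-type cells at 7.5 dpf. Muscle markers summed to 333 RPKM in mutant and 746 RPKM in wild-type cells at 5.5 dpf, and to 1411 RPKM in mutant and 495 RPKM in wild-type cells at 7.5 dpf. The part of these shifts in the proteasome values was not tested.

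Proteasome subunit genes were more abundant in mutant than in wild-type hepatocytes at both stages. Their summed level was 4531 RPKM in mutant and 2268 RPKM in wild-type cells at 5.5 dpf, a ratio of 1.998. At 7.5 dpf the sum was 4312 RPKM in mutant and 1491 RPKM in wild-type cells, a ratio of 2.89. The mutant sums thus lay close together and the wild-type sums apart. As a share of the inferred read totals, the genes took 0.599% (95% Wilson interval 0.597 to 0.602%) in mutant and 0.308% (0.306 to 0.310%) in wild-type cells at 5.5 dpf. At 7.5 dpf they took 0.578% (0.576 to 0.581%) in mutant and 0.201% (0.199 to 0.202%) in wild-type cells. Under median-ratio scaling, which sets the typical gene equal between libraries, the ratios of the sums were 1.62 at 5.5 dpf and 2.14 at 7.5 dpf. In such sorted bulk samples, fewer cells of a type and less RNA per cell cannot be told apart.

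All 4 classes had a higher sum in the mutant. The alpha genes summed to 1241 RPKM in mutant and 781 RPKM in wild-type cells at 5.5 dpf, and to 1405 RPKM in mutant and 583 RPKM in wild-type cells at 7.5 dpf. The beta genes, which had the highest ratio of sums at 5.5 dpf (2.71), gave 1287 RPKM in mutant and 474 RPKM in wild-type cells at that stage. At 7.5 dpf the beta sums were 927 RPKM in mutant and 302 RPKM in wild-type cells. The ATPase genes had the highest ratio at 7.5 dpf (3.48), with 793 RPKM in mutant and 228 RPKM in wild-type cells, against 796 RPKM in mutant and 425 RPKM in wild-type cells at 5.5 dpf. The non-ATPase genes summed to 1207 RPKM in mutant and 588 RPKM in wild-type cells at 5.5 dpf, and to 1187 RPKM in mutant and 378 RPKM in wild-type cells at 7.5 dpf. The differences between classes were not tested.

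**Figure D1:**
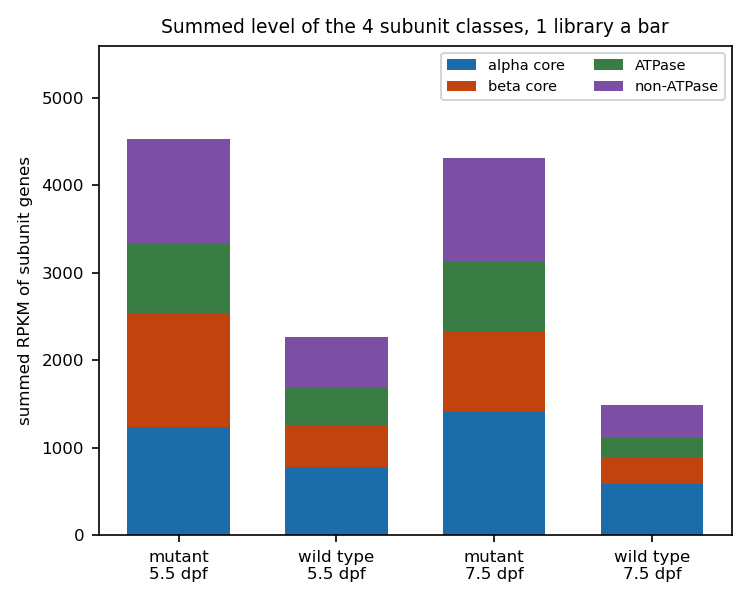
Summed RPKM of the 43 proteasome subunit genes in each library, stacked by class, with 1 library a bar and no error bar. Both mutant bars, at 4531 and 4312 RPKM, stand above both wild-type bars, at 2268 and 1491 RPKM.

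Gene by gene, a difference of log2(RPKM + 1) of at least 1 in size was counted as past 2-fold, a scale that understates the change of genes with low levels. At 5.5 dpf, 18 of the 43 genes were higher and 4 were lower in the mutant, where 28% of all tested genes were higher and 25.6% lower. The median difference was 0.90 for the proteasome genes and 0.00 for all tested genes, and 36 of the 43 were above 0 beside 48.8% of all tested. Under median-ratio scaling, 11 of the 43 (25.6%) were past 2-fold higher at that stage, near the 23.5% of all tested genes, and the median difference was 0.60. At 7.5 dpf, 33 of the 43 were higher and 0 were lower, where 40% of all tested genes were higher and 23.1% lower. The median difference was 1.55 for the proteasome genes and 0.33 for all tested genes, and 41 of the 43 were above 0 beside 56.5% of all tested. Under median-ratio scaling 22 of the 43 were higher and 1 was lower at 7.5 dpf, with a median of 1.12. Of all tested genes 34.4% were then higher and 26.7% lower. Of the 33 genes, psma6l, psmb10 and psmd5 reached the level threshold through the mutant library of 7.5 dpf alone and so had to be higher there. Without all tested genes that passed through 1 library alone, 30 of 40 proteasome genes were higher at 7.5 dpf, beside 39.5% of tested genes. At 5.5 dpf 18 of 40 were then higher and 2 lower, beside 30.0% of tested genes higher and 23.0% lower.

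**Figure D2:**
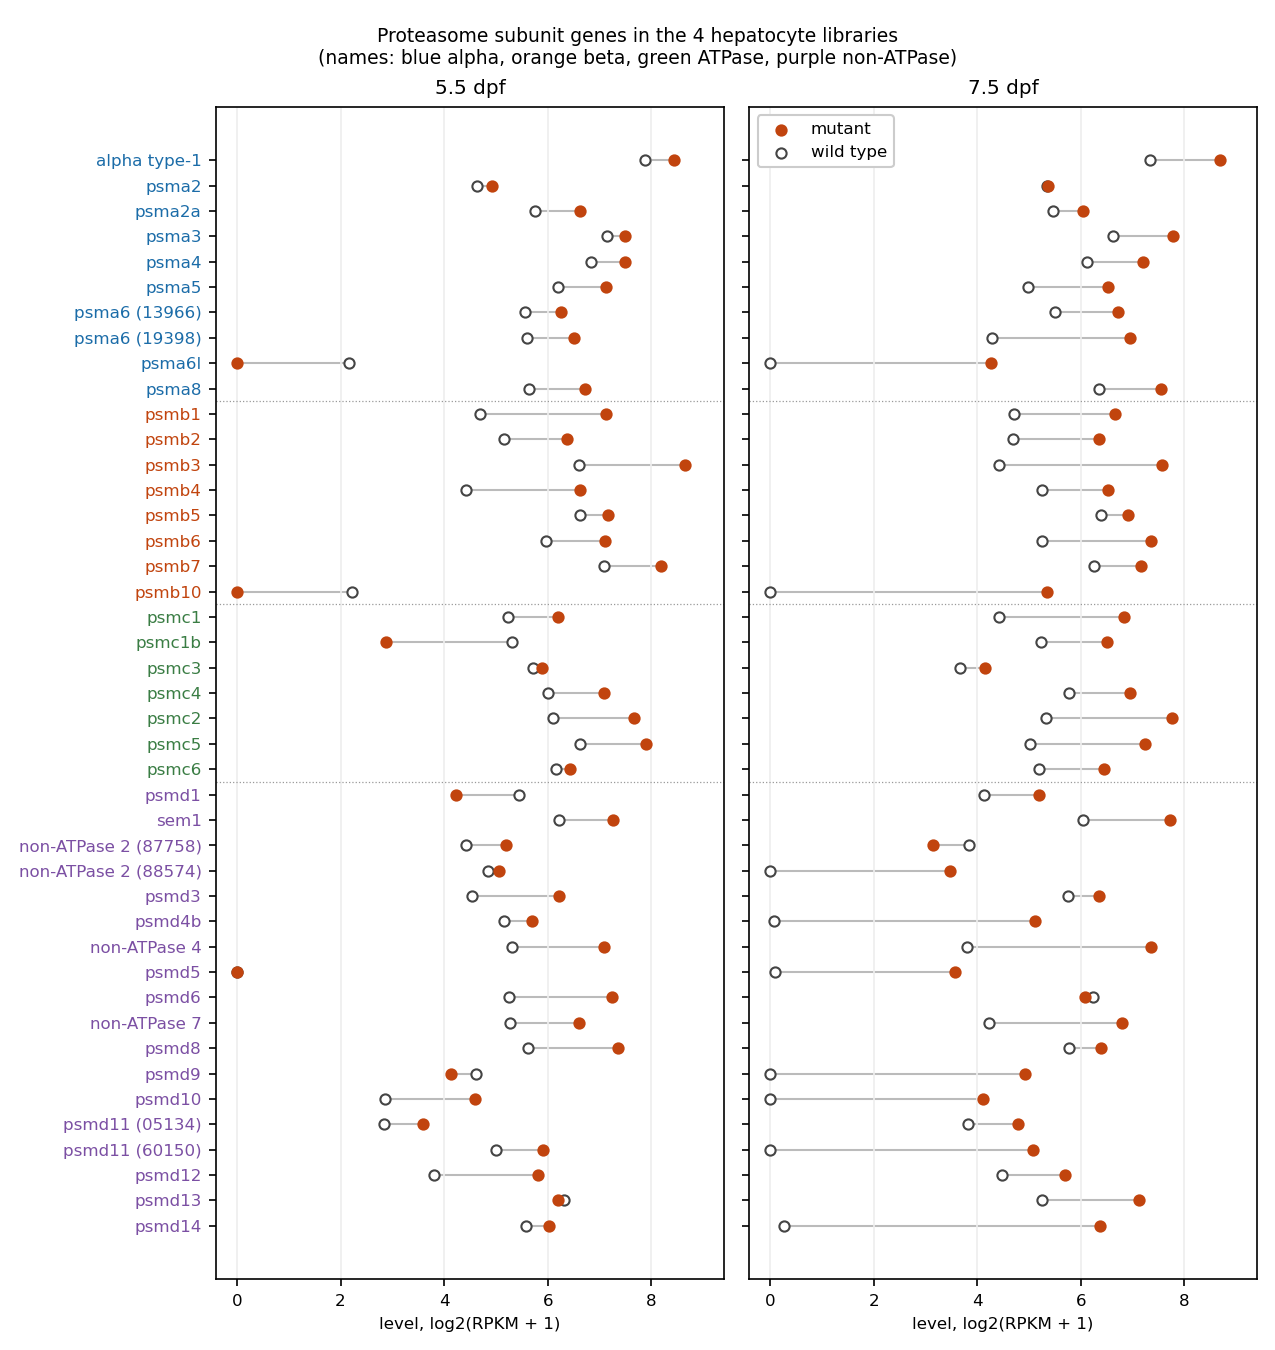
Level of each proteasome gene as log2(RPKM + 1) in mutant (filled) and wild-type (open) hepatocytes at 5.5 dpf (left) and 7.5 dpf (right), 1 library a point, with the last 5 digits of the gene ID where a name is shared. At 7.5 dpf 33 filled points lie at least 1 to the right of the open one, and at 5.5 dpf 18 do; psmd5 is at 0 in both libraries at 5.5 dpf.

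The alpha genes, whose products form the outer rings and the gate of the core, were past 2-fold more often at 7.5 than at 5.5 dpf. At 5.5 dpf 1 of the 10 was past 2-fold higher and 1 lower, and at 7.5 dpf 8 were higher and 0 lower. For this class and those that follow, the shares over all tested genes are 28% higher and 25.6% lower at 5.5 dpf, and 40% higher and 23.1% lower at 7.5 dpf. The highest gene of the class was alpha type-1 (ENSDARG00000074076), at 346 RPKM in mutant and 233 RPKM in wild-type cells at 5.5 dpf. At 7.5 dpf it was at 413 RPKM in mutant and 160.4 RPKM in wild-type cells, 2.58-fold higher in the mutant. The gene psma8, annotated as alpha type-7, was the alpha gene past 2-fold higher at both stages. It was at 105 RPKM in mutant and 48.8 RPKM in wild-type cells at 5.5 dpf, and at 187 RPKM in mutant and 81.0 RPKM in wild-type cells at 7.5 dpf. Its ratios, 2.15 and 2.31, were close to each other, and both genotypes had more of it at 7.5 dpf. The genes psma3, psma4 and psma5, of single alpha subunits, were 1.29- to 1.93-fold higher in the mutant at 5.5 dpf and 2.14- to 2.99-fold higher at 7.5 dpf.

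A different pattern was seen for psma6l, which had a low level and is 1 of 3 genes of the alpha type-6 kind in the set. It was at 0 in mutant and 3.47 RPKM in wild-type cells at 5.5 dpf, and at 18.1 RPKM in mutant and 0 in wild-type cells at 7.5 dpf. Set against a floor of 3 reads per library, it was at least 60.3-fold lower in the mutant at 5.5 dpf and at least 321-fold higher at 7.5 dpf. Both libraries that held it were thus set against a library at 0.

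Of the 8 beta genes, 6 were past 2-fold higher and 1 was lower in the mutant at 5.5 dpf, and 6 were higher and 0 lower at 7.5 dpf. The highest level was that of psmb3, a structural subunit of the beta ring, at 400.5 RPKM in mutant and 95.8 RPKM in wild-type cells at 5.5 dpf. At 7.5 dpf psmb3 was at 189 RPKM in mutant and 20.3 RPKM in wild-type cells. Its ratio was 4.18 (counting interval 4.02 to 4.35) at 5.5 dpf and 9.33 (8.61 to 10.1) at 7.5 dpf, although its level was lower at 7.5 than at 5.5 dpf in both genotypes. The structural subunit gene psmb1 had the highest difference (2.43) of all proteasome genes at 5.5 dpf, with 139 RPKM in mutant and 24.9 RPKM in wild-type cells. At 7.5 dpf it had 100.04 RPKM in mutant and 25.05 RPKM in wild-type cells, and the ratios were 5.58 (5.18 to 6.01) and 3.99 (3.70 to 4.31). Its wild-type level was nearly the same at the 2 stages. For psmb4, also structural, the levels were 97.2 RPKM in mutant and 20.3 RPKM in wild-type cells at 5.5 dpf, and 91.5 RPKM in mutant and 37.1 RPKM in wild-type cells at 7.5 dpf. The structural gene psmb2 was at 81.7 RPKM in mutant and 34.7 RPKM in wild-type cells at 5.5 dpf, and at 81.0 RPKM in mutant and 24.7 RPKM in wild-type cells at 7.5 dpf. These 4 structural genes were all past 2-fold higher at both stages in RPKM without median-ratio scaling.

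The genes of the 3 constitutive catalytic subunits differed less evenly. The gene psmb6, for the subunit with caspase-like activity, was at 136 RPKM in mutant and 61.4 RPKM in wild-type cells at 5.5 dpf, and at 163 RPKM in mutant and 36.8 RPKM in wild-type cells at 7.5 dpf. It was past 2-fold at both stages, by 2.22 and 4.43 times. The gene psmb7, for the subunit with trypsin-like activity, was at 289 RPKM in mutant and 135 RPKM in wild-type cells at 5.5 dpf, and at 142 RPKM in mutant and 75.7 RPKM in wild-type cells at 7.5 dpf. Its ratio was 2.14 at 5.5 dpf and 1.88 at 7.5 dpf, on either side of the threshold. The gene psmb5, for the subunit with chymotrypsin-like activity, was at 143 RPKM in mutant and 98.0 RPKM in wild-type cells at 5.5 dpf, and at 120 RPKM in mutant and 82.4 RPKM in wild-type cells at 7.5 dpf. With ratios of 1.46 and 1.45, psmb5 was within 2-fold at both stages.

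The inducible catalytic subunits of the immunoproteasome, which in mammals replace the constitutive ones after interferon, were at 0 or at low levels in 3 of the 4 libraries. The gene psmb10, annotated as beta type-7 like psmb7, was at 0 in mutant and 3.64 RPKM in wild-type cells at 5.5 dpf. At 7.5 dpf it was at 39.6 RPKM in mutant and 0 in wild-type cells. It was at least 43.8-fold lower in the mutant at 5.5 dpf and at least 485-fold higher at 7.5 dpf, the second largest difference of the set at that stage on the log2(RPKM + 1) scale. The gene psmb9, below the level threshold, had 8 reads in wild-type cells at 5.5 dpf and 0 reads in the other 3 libraries. The inducible genes psmb8, psmb12 and psmb13a were at 0 in all 4 libraries.

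Of the 7 ATPase genes, whose products form the ring that unfolds substrates, 3 were past 2-fold higher and 1 was lower in the mutant at 5.5 dpf, and at 7.5 dpf 6 were higher with 0 lower. Higher at both stages were psmc2, psmc4 and psmc5. The gene psmc2 was at 202 RPKM in mutant and 67.5 RPKM in wild-type cells at 5.5 dpf, and at 214 RPKM in mutant and 39.1 RPKM in wild-type cells at 7.5 dpf, by ratios of 2.99 and 5.49. The gene psmc5 was at 238 RPKM in mutant and 96.9 RPKM in wild-type cells at 5.5 dpf, and at 149.8 RPKM in mutant and 31.6 RPKM in wild-type cells at 7.5 dpf, by ratios of 2.45 and 4.745. The gene psmc4 was at 135 RPKM in mutant and 63.4 RPKM in wild-type cells at 5.5 dpf, and at 123 RPKM in mutant and 53.4 RPKM in wild-type cells at 7.5 dpf. The psmc4 ratios, 2.12 and 2.30, were the most alike of these 3 genes at the 2 stages. For psmc6 the level was 85.3 RPKM in mutant and 70.3 RPKM in wild-type cells at 5.5 dpf, and 86.8 RPKM in mutant and 35.5 RPKM in wild-type cells at 7.5 dpf. The gene psmc3 was within 2-fold at both stages, at 58.0 RPKM in mutant and 51.4 RPKM in wild-type cells at 5.5 dpf, and at 16.8 RPKM in mutant and 11.7 RPKM in wild-type cells at 7.5 dpf. In both genotypes psmc3 was past 2-fold lower at 7.5 than at 5.5 dpf.

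The 18 non-ATPase genes had 8 past 2-fold higher and 1 lower in the mutant at 5.5 dpf, and 13 higher and 0 lower at 7.5 dpf. The gene psmd1, for a large scaffold of the base, differed in opposite directions at the 2 stages. It was at 17.8 RPKM in mutant and 42.3 RPKM in wild-type cells at 5.5 dpf, and at 35.8 RPKM in mutant and 16.5 RPKM in wild-type cells at 7.5 dpf. It was 2.38-fold lower (2.26 to 2.50) in the mutant at 5.5 dpf and 2.16-fold higher (2.04 to 2.29) at 7.5 dpf.

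Among the lid genes, psmd12 and non-ATPase 7 were past 2-fold higher at both stages, as was sem1, which encodes a small acidic lid protein. The gene psmd12 was at 55.2 RPKM in mutant and 13.0 RPKM in wild-type cells at 5.5 dpf, and at 50.5 RPKM in mutant and 21.4 RPKM in wild-type cells at 7.5 dpf. The gene non-ATPase 7 (ENSDARG00000068076), whose product pairs with the lid's deubiquitinase, was at 95.6 RPKM in mutant and 37.8 RPKM in wild-type cells at 5.5 dpf. At 7.5 dpf it was at 111 RPKM in mutant and 17.6 RPKM in wild-type cells, 6.27-fold higher in the mutant. The gene sem1 was at 152 RPKM in mutant and 73.5 RPKM in wild-type cells at 5.5 dpf, and at 210.4 RPKM in mutant and 65.2 RPKM in wild-type cells at 7.5 dpf.

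Another 3 lid genes, psmd3, psmd6 and psmd8, were past 2-fold higher in the mutant at 5.5 dpf and within 2-fold at 7.5 dpf. The gene psmd6 was at 149 RPKM in mutant and 36.9 RPKM in wild-type cells at 5.5 dpf, and at 66.4 RPKM in mutant and 74.2 RPKM in wild-type cells at 7.5 dpf. It was 4.05-fold higher at 5.5 dpf and 1.12-fold lower at 7.5 dpf in the mutant. The gene psmd3 was at 73.9 RPKM in mutant and 22.4 RPKM in wild-type cells at 5.5 dpf, and at 80.3 RPKM in mutant and 52.6 RPKM in wild-type cells at 7.5 dpf. The gene psmd8 was at 163 RPKM in mutant and 48.3 RPKM in wild-type cells at 5.5 dpf, and at 82.9 RPKM in mutant and 53.7 RPKM in wild-type cells at 7.5 dpf. By contrast psmd13, also of the lid, was at 72.1 RPKM in mutant and 78.9 RPKM in wild-type cells at 5.5 dpf, and at 139 RPKM in mutant and 37.2 RPKM in wild-type cells at 7.5 dpf.

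On the log2(RPKM + 1) scale, the largest difference of the set was the 6.09 of psmd14 at 7.5 dpf. This gene encodes the deubiquitinase of the lid, which removes ubiquitin as the substrate enters. It was at 64.2 RPKM in mutant and 46.9 RPKM in wild-type cells at 5.5 dpf, and at 81.6 RPKM in mutant and 0.212 RPKM in wild-type cells at 7.5 dpf. The 7.5 dpf values rest on 2781 reads in mutant and 9 reads in wild-type cells, a ratio of 386 (203 to 844). The wild-type library at 7.5 dpf thus stood apart from the other 3 for this gene.

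That library also held 6 of the 43 proteasome genes at 0, against 3 in the mutant at 5.5 dpf, 1 in the wild type at 5.5 dpf and 0 in the mutant at 7.5 dpf. At 3 reads or fewer there were 7 proteasome genes in it. Over all tested genes, the share at 3 reads or fewer was 26.2% in mutant and 18.6% in wild-type cells at 5.5 dpf, and 23.6% in mutant and 34.2% in wild-type cells at 7.5 dpf. Where both libraries held more than 3 reads of a gene, 26 of 36 proteasome genes (72.2%) were past 2-fold higher at 7.5 dpf, beside 35.0% of tested genes. At 5.5 dpf 18 of 40 (45.0%) were, beside 30.9% of tested genes. With the wild-type library of 5.5 dpf set against the mutant of 7.5 dpf instead, 20 of 43 genes (46.5%) were higher and 3 were lower. Over all tested genes 38.6% were then higher and 26.9% lower. The median difference was 0.94 for the proteasome genes and 0.32 for all tested genes.

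The set includes 3 genes annotated as non-ATPase subunits whose products are known from yeast and mammals as chaperones that assemble the ATPase base. The gene psmd10 was at 23.3 RPKM in mutant and 6.24 RPKM in wild-type cells at 5.5 dpf, and at 16.4 RPKM in mutant and 0 in wild-type cells at 7.5 dpf. It was 3.73-fold higher (3.28 to 4.27) in the mutant at 5.5 dpf and at least 259.6-fold higher at 7.5 dpf. The gene psmd9 was at 16.5 RPKM in mutant and 23.7 RPKM in wild-type cells at 5.5 dpf, and at 29.3 RPKM in mutant and 0 in wild-type cells at 7.5 dpf. The gene psmd5 was at 0 in both genotypes at 5.5 dpf, and at 10.9 RPKM in mutant and 0.0639 RPKM in wild-type cells at 7.5 dpf. All 3 were thus at or near 0 in wild-type cells at 7.5 dpf.

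For 6 subunits the set holds more than 1 gene, with psmb7 and psmb10 kept apart although both are annotated as beta type-7. Reads of near-identical copies could have been split between them in counting, so that the values of single copies are uncertain. The base ATPase encoded by psmc1 and psmc1b had copies that differed in opposite directions at 5.5 dpf. The gene psmc1 was at 72.2 RPKM in mutant and 36.7 RPKM in wild-type cells at 5.5 dpf, and at 112 RPKM in mutant and 20.3 RPKM in wild-type cells at 7.5 dpf. The gene psmc1b was at 6.32 RPKM in mutant and 38.9 RPKM in wild-type cells at 5.5 dpf, and at 90.4 RPKM in mutant and 36.5 RPKM in wild-type cells at 7.5 dpf. At 5.5 dpf psmc1b was 6.15-fold lower (5.49 to 6.92) in the mutant, and at 7.5 dpf it was 2.47-fold higher. Its difference at 5.5 dpf was the lowest of the set on the log2(RPKM + 1) scale, though psma6l and psmb10 had larger folds. Summed over both copies, the subunit was at 78.6 RPKM in mutant and 75.6 RPKM in wild-type cells at 5.5 dpf, a ratio of 1.04, and at 203 RPKM in mutant and 56.8 RPKM in wild-type cells at 7.5 dpf, a ratio of 3.57.

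The ubiquitin receptor non-ATPase 4 is encoded by psmd4b and by ENSDARG00000036715. The gene ENSDARG00000036715 was at 136 RPKM in mutant and 38.5 RPKM in wild-type cells at 5.5 dpf, and at 162 RPKM in mutant and 12.9 RPKM in wild-type cells at 7.5 dpf, higher by 3.52 and 12.6 (11.6 to 13.7) times. The gene psmd4b was at 50.6 RPKM in mutant and 34.7 RPKM in wild-type cells at 5.5 dpf, and at 33.8 RPKM in mutant and 0.0530 RPKM in wild-type cells at 7.5 dpf. Its 7.5 dpf ratio of 638 has a counting interval of 218 to 3096, since the wild-type value rests on 3 reads. Both copies together gave a ratio of 2.54 at 5.5 dpf and 15.1 at 7.5 dpf.

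The lid scaffold non-ATPase 11 and the base scaffold non-ATPase 2 each had 1 copy at 0 in wild-type cells at 7.5 dpf. The copy psmd11 (ENSDARG00000060150) was at 59.09 RPKM in mutant and 30.8 RPKM in wild-type cells at 5.5 dpf, and at 32.7 RPKM in mutant and 0 in wild-type cells at 7.5 dpf, at least 904-fold higher in the mutant. The other copy (ENSDARG00000005134) was at 11.1 RPKM in mutant and 6.13 RPKM in wild-type cells at 5.5 dpf, and at 26.6 RPKM in mutant and 13.1 RPKM in wild-type cells at 7.5 dpf. That copy was 2.03-fold higher at 7.5 dpf but had a difference of 0.97 on the log2(RPKM + 1) scale, just within the threshold. Summed, non-ATPase 11 had ratios of 1.90 at 5.5 dpf and 4.53 at 7.5 dpf. For non-ATPase 2, the copy ENSDARG00000088574 was at 32.5 RPKM in mutant and 27.8 RPKM in wild-type cells at 5.5 dpf, and at 10.1 RPKM in mutant and 0 in wild-type cells at 7.5 dpf. Its other copy, ENSDARG00000087758, was at 35.8 RPKM in mutant and 20.4 RPKM in wild-type cells at 5.5 dpf, and at 7.87 RPKM in mutant and 13.3 RPKM in wild-type cells at 7.5 dpf. That copy had the lowest difference of the set at 7.5 dpf, 1.69-fold lower in the mutant, and the summed ratios of 1.41 and 1.35 were below 2 at both stages.

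The alpha type-2 and alpha type-6 subunits had the remaining copies. The gene psma2 was at 29.3 RPKM in mutant and 23.7 RPKM in wild-type cells at 5.5 dpf, and at 40.3 RPKM in mutant and 39.6 RPKM in wild-type cells at 7.5 dpf. The gene psma2a was at 96.9 RPKM in mutant and 53.0 RPKM in wild-type cells at 5.5 dpf, and at 65.0 RPKM in mutant and 43.1 RPKM in wild-type cells at 7.5 dpf, so that neither alpha type-2 gene was past 2-fold at either stage. Of the psma6 copies, ENSDARG00000013966 was at 75.8 RPKM in mutant and 46.1 RPKM in wild-type cells at 5.5 dpf, and at 104 RPKM in mutant and 44.01 RPKM in wild-type cells at 7.5 dpf. The copy ENSDARG00000019398 was at 89.9 RPKM in mutant and 47.7 RPKM in wild-type cells at 5.5 dpf, and at 123 RPKM in mutant and 18.5 RPKM in wild-type cells at 7.5 dpf. It was 6.63-fold higher (6.12 to 7.20) in the mutant at 7.5 dpf, and with psma6l included alpha type-6 summed to ratios of 1.70 and 3.91.

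Counted with copies summed, 36 subunits remained, with psmd5, psmd9 and psmd10 counted among them and psmb7 and psmb10 counted apart. Of these 36, 18 were past 2-fold higher and 2 lower in the mutant at 5.5 dpf, with a median difference of 0.98, and 28 were higher and 0 lower at 7.5 dpf, with a median of 1.61. Over all tested genes, with no copies summed, 28% were higher and 25.6% lower at 5.5 dpf, and 40% higher and 23.1% lower at 7.5 dpf.

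**Figure D3:**
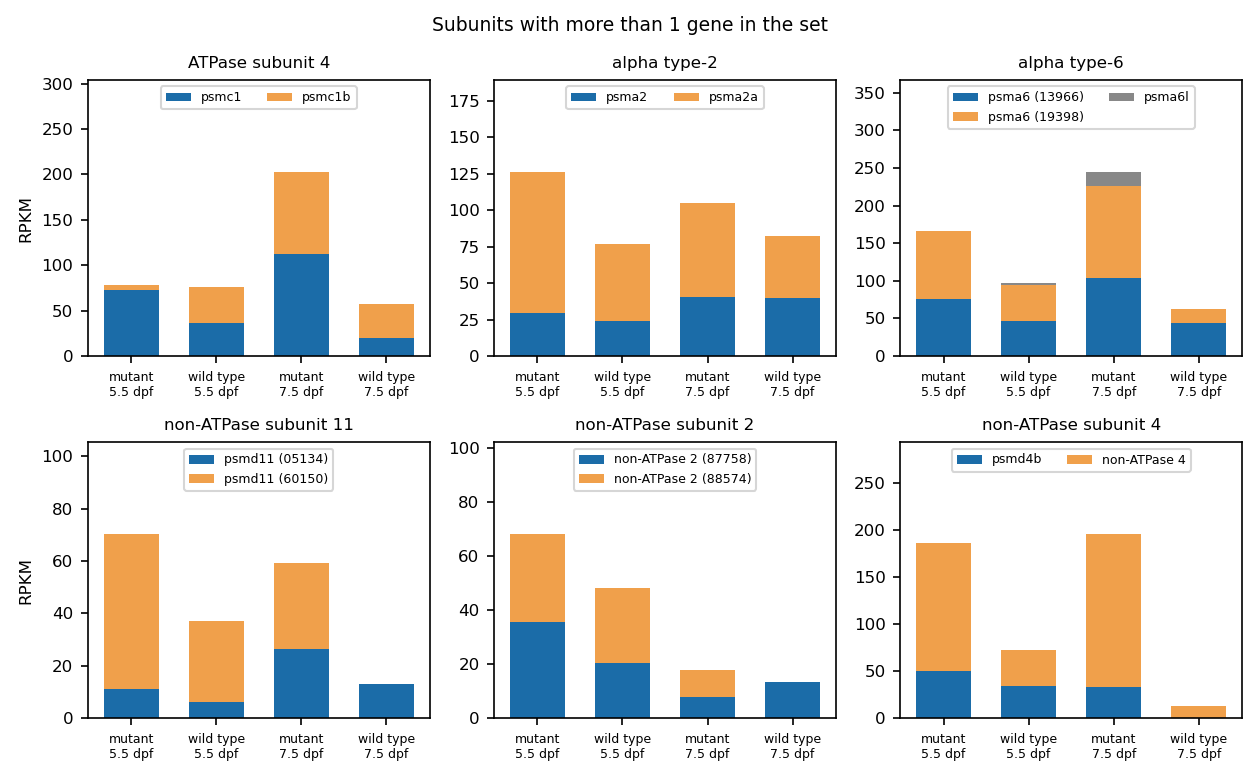
RPKM of the genes that share a subunit, stacked for each of the 4 libraries, with no error bar. The psmc1 and psmc1b bars reach 78.6 RPKM in mutant and 75.6 RPKM in wild-type cells at 5.5 dpf although psmc1b is at 6.32 RPKM in the mutant, and the wild-type bars at 7.5 dpf of non-ATPase 11 and non-ATPase 2 hold 1 copy each.

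Across both stages, 14 of the 43 genes (32.6%) were past 2-fold higher in the mutant at both, where 12.1% of all tested genes were, and 0 were lower at both, where 7.73% of all tested genes were. The 14 were psma8, psmb1, psmb2, psmb3, psmb4, psmb6, psmc2, psmc4, psmc5, sem1, non-ATPase 4 (ENSDARG00000036715), non-ATPase 7, psmd10 and psmd12. These counts use RPKM without rescaling and were not repeated under median-ratio scaling. For abundant genes that scaling lowers the difference by about 0.30 at 5.5 dpf and 0.44 at 7.5 dpf. Genes just past 2-fold here would then be within it, and the 14 would be fewer. A further 15 (34.9%) were within 2-fold at 5.5 dpf and higher at 7.5 dpf, beside 19.5% of all tested genes. Another 4 (psmb7, psmd3, psmd6 and psmd8, 9.30%) were higher at 5.5 dpf and within 2-fold at 7.5 dpf, beside 11.8% of all tested genes. Within 2-fold at both stages were 6 genes (14.0%), beside 15.7% of all tested genes. The 4 genes lower at 5.5 dpf, psma6l, psmb10, psmc1b and psmd1, were all higher at 7.5 dpf. Those 4 are 9.30% of the 43, near the 8.41% of all tested genes that were lower at 5.5 dpf and higher at 7.5 dpf. Of them, psma6l and psmb10 reached the level threshold through the mutant library of 7.5 dpf alone and so had to be higher there. The 2 genotype comparisons share no library. The size of the difference at one stage went little with its size at the other: over the 43 genes Spearman's rho was -0.087, beside 0.12 over all tested genes, and over the 35 proteasome genes above 3 reads in each library it was 0.25, beside 0.23. Genes are not independent samples, so that these values describe the libraries only. Differences above 0 at both stages were found for 34 of the 43 genes (79.1%), beside 29.8% of all tested genes. Among genes above 3 reads in each library these shares were 85.7% of the 35 proteasome genes and 41.0% of tested genes.

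**Figure D4:**
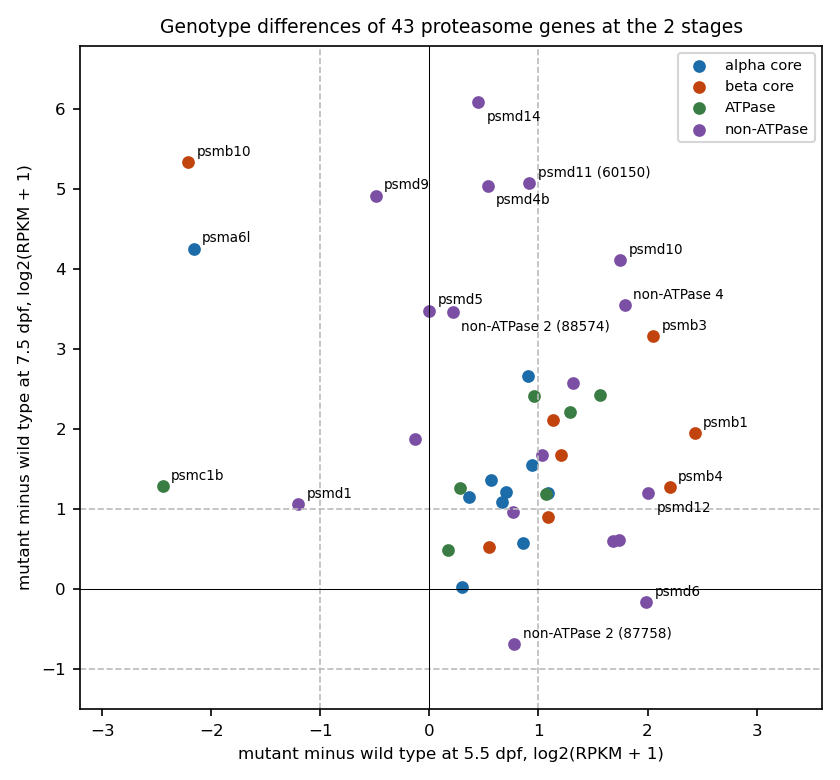
Difference of log2(RPKM + 1), mutant minus wild type, at 5.5 dpf (horizontal) and 7.5 dpf (vertical) for 43 proteasome genes coloured by class, 1 library a group, with dashed lines at 2-fold. The 14 genes higher at both stages lie in the upper right, and psma6l, psmb10, psmc1b and psmd1 lie in the upper left.

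Because proteasome genes are more abundant than most (median 85.3 RPKM in mutant and 42.3 RPKM in wild-type cells at 5.5 dpf, beside 5.66 and 4.56 RPKM over all tested genes), the counts were also set beside genes of like level. Of the 17 with a mean of 50 to 100 RPKM, 10 were past 2-fold higher in the mutant at 5.5 dpf and 13 at 7.5 dpf, beside 24.7 and 34.0% of the tested genes of that level. Of the 10 with at least 100 RPKM, 6 were higher at 5.5 dpf and 8 at 7.5 dpf, beside 21.5 and 24.8%. Of the 14 with 10 to 50 RPKM, 2 were higher and 3 lower at 5.5 dpf, beside 32.7% higher and 20.7% lower. At 7.5 dpf 10 of these 14 were higher, beside 45.2%. The counts by level use RPKM without median-ratio scaling and were not repeated under it. For abundant genes that scaling lowers the difference by about 0.30 at 5.5 dpf and 0.44 at 7.5 dpf, so these counts depend on the scaling. At 5.5 dpf the higher genes lay mostly among those with a mean of at least 50 RPKM over the 4 libraries. That mean includes the mutant libraries, so high mutant values also raise a gene's level. The link between level and difference is thus in part built in.

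Between stages, proteasome levels moved little in mutant cells and were lower at 7.5 than at 5.5 dpf in wild-type cells. These comparisons use the same libraries as those between genotypes and give the same values from another side. In the mutant, 5 of the 43 genes were past 2-fold higher and 6 lower at 7.5 dpf, where 33.8% of all tested genes were higher and 26.2% lower, and 32 genes were within 2-fold. Differences above 0 were found for 23 of the 43 genes, beside 51.4% of all tested genes. The median difference was 0.088, with a sign that turned under median-ratio scaling (-0.082). In wild-type cells 1 gene, psmd3, was higher and 17 were lower at 7.5 dpf, where 21.4% of all tested genes were higher and 30.1% lower, with medians of -0.72 for the proteasome genes and -0.0089 for all tested genes. Differences above 0 were found for 10 of the 43 genes, beside 39.7% of all tested genes. Where both libraries held more than 3 reads, 10 of 35 genes (28.6%) were lower in wild-type cells, beside 18.8% of tested genes. By the authors' deposited log2 fold change, 40.9% of the listed proteasome genes were lower in wild-type cells, beside 47.1% of all listed genes. By class, the wild-type medians were -0.53 for alpha, -0.60 for beta, -0.82 for ATPase and -1.06 for non-ATPase genes.

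**Figure D5:**
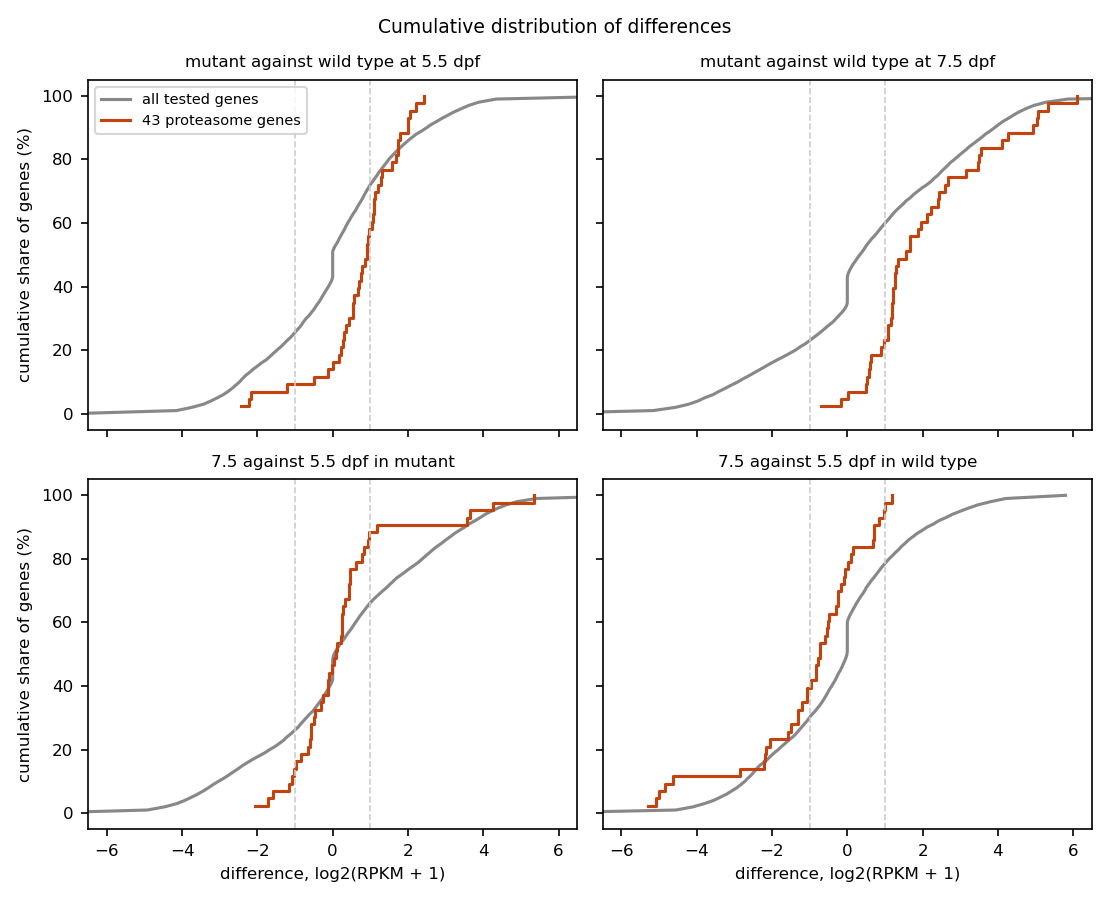
Cumulative share of genes (percent) against the difference of log2(RPKM + 1) for 43 proteasome genes (orange) and all 11135 tested genes (grey) in the 4 comparisons, with dashed lines at 2-fold. The orange curve lies right of the grey one through its middle in both genotype comparisons, with medians of 0.90 and 1.55, and left of it in wild type between stages, with a median of -0.72.

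Genes that build, open or feed the proteasome were taken from lists of known factors. Of 5 assembly factors outside the set, 2 were past 2-fold higher at 5.5 dpf and 3 at 7.5 dpf, with 0 lower. For this list and those that follow, the shares over all tested genes are 28% higher and 25.6% lower at 5.5 dpf, and 40% higher and 23.1% lower at 7.5 dpf. The maturation factor gene pomp, which helps the core particle assemble, was at 119 RPKM in mutant and 37.0 RPKM in wild-type cells at 5.5 dpf, and at 68.2 RPKM in mutant and 25.6 RPKM in wild-type cells at 7.5 dpf, past 2-fold at both. The gene ecpas, for a proteasome-binding scaffold, had differences of 2.08 and 0.057, and psmg1, for a chaperone of the alpha ring, had -0.10 and 4.25. Among 6 activator and inhibitor genes, the mutant had 2 higher and 0 lower at 5.5 dpf and 3 higher and 2 lower at 7.5 dpf. The activator gene psme2 was at 21.6 RPKM in mutant and 4.53 RPKM in wild-type cells at 5.5 dpf, and at 12.8 RPKM in mutant and 1.204 RPKM in wild-type cells at 7.5 dpf. The inhibitor gene psmf1 differed in opposite directions, at 17.1 RPKM in mutant and 0 in wild-type cells at 5.5 dpf, and at 0.0282 RPKM in mutant and 12.4 RPKM in wild-type cells at 7.5 dpf. The lowest difference of that list at 5.5 dpf was the -0.77 of psme3ip1.

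Of 6 ubiquitin and ubiquitin-like genes, 2 were higher at 5.5 dpf and 2 at 7.5 dpf, with 0 lower. The gene uba1, for the enzyme that activates ubiquitin, was at 30.1 RPKM in mutant and 13.9 RPKM in wild-type cells at 5.5 dpf, and at 30.6 RPKM in mutant and 0.0442 RPKM (8 reads) in wild-type cells at 7.5 dpf. The polyubiquitin gene ubb (ENSDARG00000002369) was at 1583 RPKM in mutant and 1011 RPKM in wild-type cells at 5.5 dpf, and at 1402 RPKM in mutant and 1516 RPKM in wild-type cells at 7.5 dpf, within 2-fold at both. The lowest differences of the list were the -0.45 of nedd8 at 5.5 dpf and the -0.78 of a second ubb gene (ENSDARG00000093313) at 7.5 dpf. Of 19 shuttle and associated factors, 5 were higher and 2 lower at 5.5 dpf, and 8 were higher and 1 lower at 7.5 dpf, near the 28% and 40% of all tested genes that were higher. The gene vcp, for the ATPase that draws ubiquitinated proteins out of complexes and membranes, was at 356 RPKM in mutant and 128 RPKM in wild-type cells at 5.5 dpf, and at 260.0 RPKM in mutant and 31.0 RPKM in wild-type cells at 7.5 dpf. The ubiquitin ligase gene ube3a was at 9.89 RPKM in mutant and 0.386 RPKM in wild-type cells at 5.5 dpf, and at 1.37 RPKM in mutant and 0 in wild-type cells at 7.5 dpf. These were the 2 genes of that list past 2-fold higher at both stages. However, ube3a reached the level threshold through the mutant library of 5.5 dpf alone and so had to be highest there. In all, 5 of the 19 passed through 1 library alone, 2 of them through the mutant library of 7.5 dpf. The genes ubxn7 and txnl1 were lower at 5.5 dpf (-3.19 and -1.31) and higher at 7.5 dpf (1.58 and 1.07). The lowest difference of the list was that of ubxn7 at 5.5 dpf and of ddi2 (-3.35) at 7.5 dpf, and its highest at 7.5 dpf was that of ubqln4 (4.94).

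Of 12 tested genes of transcription control, 2 were higher and 4 lower at 5.5 dpf, and 4 were higher and 0 lower at 7.5 dpf, smaller shares of higher genes than the 28% and 40% of all tested. Among the 12, 2 reached the level threshold through the mutant library of 7.5 dpf alone and so had to be highest there. The highest difference was that of nfybb (6.11) at 5.5 dpf and of nfya (4.98) at 7.5 dpf, both for subunits of the CCAAT-binding factor NF-Y. The lowest at both stages was that of a keap1 gene (ENSDARG00000074634), whose product holds back the stress factor NRF2, at -2.63 and -0.31. The gene stat3, for a cytokine-activated transcription factor, had -1.30 at 5.5 dpf and 4.18 at 7.5 dpf. The NFE2L1 genes were below the level threshold: nfe2l1a was at 0.126 RPKM in mutant and 2.06 RPKM in wild-type cells at 5.5 dpf and at 0 in both at 7.5 dpf, and nfe2l1b was at 0.305 RPKM in mutant and 0 in wild-type cells at 5.5 dpf, and at 2.35 RPKM in mutant and 0 in wild-type cells at 7.5 dpf. Of 14 immunoproteasome and peptide transport genes outside the set, 4 reached the level threshold, each through 1 library alone, so that they are given by their values. The peptide-loading gene tapbpl was at 15.3 RPKM in mutant cells at 7.5 dpf and at 0 in the other 3 libraries. Of a pair of erap1 genes, for a peptide-trimming enzyme, ENSDARG00000021859 had the highest difference of that list at 7.5 dpf (4.53) and ENSDARG00000013024 the lowest at 5.5 dpf (-2.64).

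A count model over all 4 libraries, with stage as a term, called 0 of the 11135 tested genes higher (0%) and 0 lower (0%) in the mutant by edgeR's quasi-likelihood test at an adjusted p of 0.05, with 342 at an unadjusted p under 0.05. Its only residual degree of freedom holds how the genotype difference changes between stages, not the spread between animals. Of the 43 proteasome genes, 38 had a positive fold change, but the share of positive fold changes over all tested genes was not computed. An unadjusted p under 0.05 by edgeR was found for 3 of the 43. These 3 were psmb3 (log2 fold change 2.27), psmc2 (1.64) and non-ATPase 4 (2.36), each with an adjusted p of 1 by edgeR. DESeq2 called 341 tested genes higher (3.06%) and 440 lower (3.95%), among them 1 proteasome gene, psmd11 (ENSDARG00000060150), with an adjusted p of 0.0169. In the authors' deposited tables, 18 of 42 listed proteasome genes were marked as higher and 4 as lower in the mutant at 5.5 dpf, and 34 of 43 as higher and 0 as lower at 7.5 dpf. By the deposited log2 fold change, 34.0% of all listed genes were past 2-fold higher and 40.8% lower at 5.5 dpf. At 7.5 dpf 51.4% were higher and 29.2% lower. The marked proteasome genes were those with a deposited log2 fold change past 1 in size, from the same single libraries.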

How the data were processed

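RNA of sorted hepatocytes was sequenced in 4 libraries, 1 per group. The authors deposited RPKM values per gene and 4 comparison tables, per the file headers, with 2 normalized columns, a fold change, a log2 fold change, a p-value and an adjusted p-value in each. Judged by its values, each normalized column is CPM as deposited. The submitters' processing notes name DESeq 1.16.0, HTSeq 0.6.0, TopHat2 2.0.12 and Bowtie2 2.2.3, with no roles. Genome build, annotation and strand use stand as not given in the sources used here.

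A step per library turned 100% of the listed CPM values above 0 into whole reads (tolerance 0.01). Of 44540 values of tested genes, 1502 were missing from the tables and were computed from RPKM, 62 of them above 0 and 0 of proteasome genes. The steps gave the read totals, with the higher total used where a library's comparison tables differed. Recovered reads gave counting intervals and floors (3 reads per library). Smart-seq2 amplifies by PCR without molecular identifiers, so that intervals cover counting error only.

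Differences are of log2(RPKM + 1), with a pseudocount of 1, over genes with a mean of at least 1 RPKM, and a size of 1 or more counts as past 2-fold. With 1 library per group there is no test. The reads entered edgeR 4.0.16 (quasi-likelihood, stage as a term, Benjamini-Hochberg adjustment over all tested genes), with DESeq2 1.42.0 as an alternative, in R 4.3.3. The edgeR step was tested on simulated data with no stage effect and the same genotype effect at both stages. Its power where the genotype effect changes between stages was thus not tested. Alternatives changed the pseudocount, the level filter, the scaling, the read minimum and the source of the fold change.

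Members were taken from gene descriptions in the comparison tables. Symbols came from a gene name table that matched 21939 of 33737 IDs, and no ID had the symbol zc3h8, so that gene itself was not analysed here. Levels are given in every library for genes past 2-fold in both genotype comparisons, the 5 highest and 5 lowest differences of each, genes at 0 in a library and copies of a subunit. Of companion lists, the genes past 2-fold higher or lower at both stages and the highest and lowest differences are named. The members, the lists and this rule were chosen with earlier results of these data known.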

Additional observations from a re-analysis of the deposited data

Results flagged for a closer look

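The difference between mutant and wild type ran in opposite directions at the 2 stages for 4 proteasome genes, each past 2-fold, and the difference between stages was not tested. All 4 were lower at 5.5 dpf and higher at 7.5 dpf, a share of 9.30% of the 43 genes, near the 8.41% of all tested genes. For psma6l, the difference of log2(RPKM + 1) was -2.16 at 5.5 dpf and 4.26 at 7.5 dpf. For psmb10, it was -2.21 at 5.5 dpf and 5.34 at 7.5 dpf. For psmc1b, it was -2.45 at 5.5 dpf and 1.28 at 7.5 dpf. For psmd1, it was -1.20 at 5.5 dpf and 1.07 at 7.5 dpf. From the other side of the same libraries, 7.5 against 5.5 dpf gave 4.26 in mutant and -2.16 in wild-type cells for psma6l, and 5.34 in mutant and -2.21 in wild-type cells for psmb10. Both of these genes were at 0 in the mutant at 5.5 dpf and in the wild type at 7.5 dpf. They reached the level threshold through the mutant library of 7.5 dpf alone and so had to be higher there.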

How the results depend on the processing

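Of the main counts under an alternative setting, 80 stayed within 1.5 times, 9 were smaller and 7 larger, and the cause was not tested. This tally compares counts of proteasome genes only and takes no account of the shares over all tested genes. For mutant against wild type at 5.5 dpf (18 higher, 4 lower), median-ratio scaling left 11 higher, and a pseudocount of 5, more than 3 reads in both libraries or, chosen after seeing the data, dropping genes that pass the level filter through 1 library alone each left 2 lower. Scaling to genes outside the 100 highest, also chosen after seeing the data, left 13 higher (30.2%) at 5.5 dpf, beside 25.4% of all tested genes. At 7.5 dpf (33 higher, 0 lower), median-ratio scaling and, chosen after seeing the data, scaling to genes outside the 100 highest each gave 22 higher and 1 lower. The wild type of 5.5 dpf in place of that of 7.5 dpf, also chosen after seeing the data, gave 20 higher and 3 lower, with a median difference of 0.94 in place of 1.55. For 7.5 against 5.5 dpf in the mutant (5 higher), a mean of at least 10 RPKM left 3, and more than 3 reads or dropping genes that pass through 1 library alone left 2. The median there, 0.088, turned to -0.082 under median-ratio scaling and to -0.019 with scaling outside the 100 highest genes. In wild type (1 higher, 17 lower), 3 were higher with a pseudocount of 0.1 and with scaling outside the 100 highest genes, 4 with the authors' deposited log2 fold change, and 10 were lower with more than 3 reads. By the deposited log2 fold change 18 of 44 (40.9%) were lower, a smaller share than the 47.1% of all listed genes. The medians were then -0.76 for the proteasome genes and -0.70 for all listed genes. DESeq2 called 1 proteasome gene higher, where edgeR called 0. Leaving out psmd5, psmd9 and psmd10 turned no median. No paired analysis was possible because the labels give no replicate numbers and each group is 1 library, so that no library could be left out in turn either. The count model compares genotypes within stages, with stage as a term. Depth allows no fold where both libraries have 3 reads or fewer.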
